A study of Mus musculus with 4 samples.

Results

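The core circadian clock was followed through 10 genes, Arntl, Clock, Npas2, Per1, Per2, Per3, Cry2, Dbp, Tef and Nr1d1, in the cervical spinal cord of NC/Nga mice. The members were all probes that the array's annotation assigns to one of these symbols, 19 probes for 10 of the 19057 genes that the array names. The 4 arrays came from male NC/Nga mice 9 weeks old, an inbred strain that is prone to a skin disease resembling atopic dermatitis when housed conventionally. SPF arrays (n = 2) carried RNA of mice kept specific-pathogen-free, with a normal phenotype, and conventional arrays (n = 2) carried RNA of mice kept in conventional housing, with the atopic dermatitis phenotype. Housing and skin disease therefore cannot be told apart. The labels give no time of day for the tissue collection, and nothing in them says whether replicates of a group are separate animals, so p-values cover only the spread between these arrays.

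The clock is a feedback loop of transcription that runs in nearly every cell. BMAL1, the product of Arntl, pairs with CLOCK or NPAS2, binds E-box elements and switches on the Per, Cry, Nr1d1 and Dbp genes, whose products act back on the loop. PER and CRY proteins block BMAL1, REV-ERB-alpha, the product of Nr1d1, represses Arntl and Npas2, and DBP and TEF act on D-box elements of output genes. In tissues of nocturnal mice outside the brain's central clock, mRNA of Arntl and Npas2 is highest from late night to early morning, while Nr1d1 and Dbp are highest during the day and the Per genes towards dusk. The genes were read as a morning arm (Arntl, Clock, Npas2) and an evening arm (Per1, Per2, Per3, Cry2, Dbp, Tef, Nr1d1). A difference in clock phase between the groups could move the arms in opposite directions. The evening arm joins genes highest during the day with genes highest towards dusk. A phase difference could therefore also move its members against each other, which the mean of the arm would not show.

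Promoters are shown because these genes are wired to each other through short DNA elements. RefSeq promoter entries (build GRCm38.p6) matched 9 of the 10 genes, all but Per2, with 14 start sites. The 250 bases before each start were searched on both strands for the E-box CACGTG, its variant CACGTT (the E'-box), the D-box as TTATGTAA or TTATGCAA, and the half-site AGGTCA that REV-ERB and ROR receptors recognise. Matches stand in capitals and did not overlap each other. Shown 5′ to 3′ on the gene's strand are Per1 at chr11:69098699-69098948 (plus strand), with an E-box 166 bases before the start, a half-site at 137 and a D-box at 24; Per3 at chr4:151044666-151044915 (minus strand), with D-boxes at 205 and 158; Tef at chr15:81802423-81802672 (plus strand), with an E-box at 127; Nr1d1 at chr11:98775378-98775627 (minus strand), with an E'-box (read as AACGTG) at 28; and Dbp at chr7:45704997-45705246 (plus strand), with none of the motifs in this window.
Per1: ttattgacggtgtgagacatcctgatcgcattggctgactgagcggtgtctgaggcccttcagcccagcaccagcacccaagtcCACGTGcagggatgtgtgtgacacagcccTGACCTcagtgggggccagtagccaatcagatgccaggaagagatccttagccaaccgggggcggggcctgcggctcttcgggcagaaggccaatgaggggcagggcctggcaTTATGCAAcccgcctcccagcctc
Per3: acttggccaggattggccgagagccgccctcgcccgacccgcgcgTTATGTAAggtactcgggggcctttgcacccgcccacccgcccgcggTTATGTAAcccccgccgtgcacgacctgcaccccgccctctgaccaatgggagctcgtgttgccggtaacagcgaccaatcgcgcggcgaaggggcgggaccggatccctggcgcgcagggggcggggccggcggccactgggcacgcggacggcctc
Tef: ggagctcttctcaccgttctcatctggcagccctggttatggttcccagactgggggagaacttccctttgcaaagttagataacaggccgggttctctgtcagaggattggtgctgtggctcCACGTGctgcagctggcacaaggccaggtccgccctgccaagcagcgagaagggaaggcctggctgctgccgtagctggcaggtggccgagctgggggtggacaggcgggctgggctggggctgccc
Nr1d1: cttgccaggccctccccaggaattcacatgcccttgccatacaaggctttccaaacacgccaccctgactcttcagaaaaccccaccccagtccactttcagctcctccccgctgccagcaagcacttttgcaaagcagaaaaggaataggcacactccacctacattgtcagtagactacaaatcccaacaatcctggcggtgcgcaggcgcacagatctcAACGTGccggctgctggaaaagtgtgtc
Dbp: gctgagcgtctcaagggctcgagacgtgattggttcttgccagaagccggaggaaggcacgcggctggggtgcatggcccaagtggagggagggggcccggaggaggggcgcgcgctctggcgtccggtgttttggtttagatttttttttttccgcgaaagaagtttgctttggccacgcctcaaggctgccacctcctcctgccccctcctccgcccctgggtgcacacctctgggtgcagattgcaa
Over all 32851 promoters in the table, the E-box letters occurred in 6.02%, the E'-box in 3.85%, the D-box in 1.50% and the half-site in 14.0%. Each motif was found in 2 of the 9 matched genes, the E'-box also in Cry2 and the half-site also in a promoter of Clock. Arntl and Npas2, like Dbp, had none. Genes were counted with a match at any of their start sites, whereas the shares are per promoter, so the units differ. A match is a description of the letters and shows no binding.

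Bead signals were background-corrected and quantile normalized, and all levels below are on a log2 scale. A probe counted as above background where its detection p was under 0.05, and it was tested where this held on at least 2 of the 4 arrays. Each array detected between 44.9% and 46.3% of the 45281 probes, with array-to-array correlations of 0.985 to 0.990 over the 21065 tested probes. Of 10 marker genes of cord neurons and glia with a named probe, 7 were detected (Chat, Slc5a7, Gad1, Mbp, Gfap, Aldh1l1 and Hoxb5), Hoxc4 was above background on 1 array and the probes of Slc6a5 and Snap25 were not above background on any array.

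Of the 19 clock probes, 14 were tested, and they covered all 10 genes. Of the other 5, 4 (Per1, Per2, Cry2 and Clock) were not above background on any array and a Per3 probe was so on 1 array. In 3 of these 5 the annotation points to a GenBank cDNA record, while all 14 tested probes point to a RefSeq mRNA. Of the 10 genes, 6 had 1 tested probe and 4 (Per1, Per2, Tef and Clock) had 2. Each gene is represented by its tested probe of highest mean, and differences are conventional minus SPF with the model's standard error.

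No clock gene passed the test. In limma's moderated model with Benjamini-Hochberg adjustment over all 21065 probes, 0 of 14 clock probes had an adjusted p under 0.05 (lowest adjusted p = 1.0), as did 0% of all tested probes, and 4 of 14 had an unadjusted p under 0.05 against 3.15% of all probes. Of these 4, the Npas2 probe was tested only through its detection on the conventional arrays. The Per2 probe among them is the second of its gene, and the representative one did not reach that threshold. The largest differences of the 10 genes were lower values of Dbp and Nr1d1 and a higher value of Npas2 in conventional cord, and Per2 came next, higher in conventional cord. In bulk tissue, fewer cells of a type and less RNA per cell cannot be told apart. With 2 arrays per group, an exact permutation of the labels cannot give a two-sided p below 0.333 for a single gene.

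**Figure D1:**
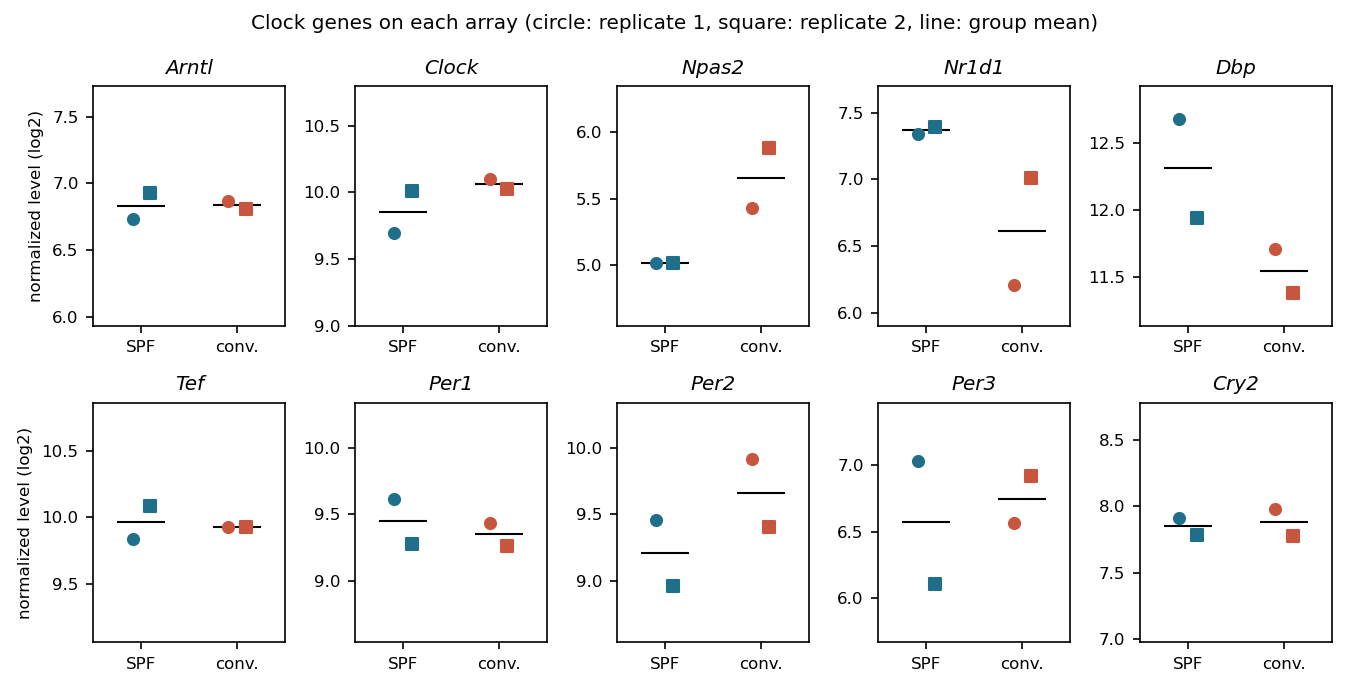
Normalized log2 level of the representative probe of each clock gene (y axis, each panel spanning the same number of log2 units) on SPF and conventional arrays (x axis), with a circle for replicate 1, a square for replicate 2 and a line for the group mean. Dbp and Nr1d1 lie lower and Npas2 higher on both conventional arrays than on either SPF array.

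Dbp encodes a PAR bZIP transcription factor that carries the clock's rhythm to output genes and is among the most strongly cycling transcripts of mouse tissues. Its deposited signals were 6956 and 4062 on the SPF arrays and 3463 and 2647 on the conventional arrays. On the normalized scale it stood at 12.69 and 11.94 on the SPF arrays and at 11.71 and 11.38 on the conventional arrays, so both conventional arrays were below both SPF arrays. SPF replicate 1 was the highest of the 4, and the gap between the SPF replicates exceeded the gap between SPF replicate 2 and conventional replicate 1. The difference was -0.77 ± 0.23 (n = 2 per group; 1.71-fold lower; 95% interval -1.32 to -0.22; unadjusted p = 0.0122 and adjusted p = 1.0 in limma's test). Without SPF replicate 1 it was -0.40, and without SPF replicate 2 it was -1.15.

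Nr1d1 encodes REV-ERB-alpha, the nuclear receptor that represses Arntl and Npas2. It was level on the SPF arrays, at 7.34 and 7.39, and lower but uneven on the conventional arrays, at 6.21 and 7.01. The groups did not overlap, and conventional replicate 1 was the array that stood apart. The difference was -0.76 ± 0.28 (1.69-fold lower; 95% interval -1.42 to -0.09; unadjusted p = 0.0304 and adjusted p = 1.0 in limma's test). Leaving out conventional replicate 1 gave -0.36, and leaving out its partner gave -1.16. In the authors' own normalized table, whose low values are compressed, it was -0.24.

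Tef, the PAR bZIP relative of Dbp, did not share these values. Its representative probe stood at 9.84 and 10.09 on the SPF arrays and at 9.93 on each conventional array. Its difference was -0.03 ± 0.14 with a 95% interval of -0.36 to 0.29, and its second probe gave -0.03 ± 0.28. Neither interval excludes a moderate difference in either direction.

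The Period genes, whose proteins form the repressing complex of the loop, did not move together. Per2 stood at 9.46 and 8.96 on the SPF arrays and at 9.91 and 9.40 on the conventional arrays, so the groups overlapped by a small margin. Replicate 1 was the higher array in each group. The difference was 0.45 ± 0.22 (1.36-fold higher; 95% interval -0.07 to 0.97; unadjusted p = 0.0832 in limma's test). Its second probe gave almost the same difference, 0.44 ± 0.19 (unadjusted p = 0.0457 and adjusted p = 1.0 in limma's test), from 8.99 and 8.64 on the SPF arrays against 9.42 and 9.09 on the conventional arrays, without overlap. With conventional replicate 1 left out the Per2 difference was 0.19, and with conventional replicate 2 left out 0.70.

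Per1 is a Period gene that light, cAMP signalling and glucocorticoids induce directly. It stood at 9.61 and 9.28 on the SPF arrays and at 9.44 and 9.26 on the conventional arrays. The groups overlapped and the difference was -0.10 ± 0.16 (95% interval -0.48 to 0.28). Its second probe had the opposite sign, 0.15 ± 0.19, and Per1 was the only one of the 4 genes with 2 tested probes in which the signs differed. Per3 had the widest spread between replicates of all 10 genes. It stood at 7.03 and 6.11 on the SPF arrays and at 6.57 and 6.92 on the conventional arrays, with both conventional values inside the SPF range. Its difference was 0.17 ± 0.33, turning to -0.29 without SPF replicate 2 and to 0.64 without SPF replicate 1.

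Cry2, the cryptochrome repressor on the list, stood at 7.91 and 7.78 on the SPF arrays and at 7.98 and 7.78 on the conventional arrays. The groups overlapped, and the difference was 0.03 ± 0.18 (95% interval -0.39 to 0.45). The sign changed under median scaling and without any scaling between arrays.

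In the morning arm, Arntl, whose product BMAL1 is the indispensable activator of the loop, gave the smallest difference of the 10 genes. It stood at 6.73 and 6.93 on the SPF arrays and at 6.87 and 6.80 on the conventional arrays, both inside the SPF range. The difference was 0.01 ± 0.21 (95% interval -0.47 to 0.49), and its sign turned under median scaling and without scaling between arrays. An interval of this width does not show that Arntl was alike in the groups.

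Clock, which encodes the partner of BMAL1, stood at 9.70 and 10.01 on the SPF arrays and at 10.10 and 10.03 on the conventional arrays. Both conventional arrays were above both SPF arrays, but conventional replicate 2 lay barely above SPF replicate 2. The difference was 0.21 ± 0.15, and 0.05 without SPF replicate 1. Its second probe gave 0.32 ± 0.26 with overlapping groups.

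Npas2, a paralog of Clock that can take its place beside BMAL1, was not above background on either SPF array. It stood at 5.02 and 5.01 on the SPF arrays and at 5.43 and 5.88 on the conventional arrays, where both values were above background. Set against the lowest level counted as above background, its conventional mean was 1.50-fold higher (1.28-fold without conventional replicate 2). This ratio takes no account of error. The fitted difference was 0.64 ± 0.24 (unadjusted p = 0.0286 and adjusted p = 1.0 in limma's test). Npas2 was tested only through its detection on the conventional arrays, so it could hardly have shown the opposite sign. It was dim throughout. The authors' table gave 0.10, and subtraction of the mean of the negative controls gave 1.10.

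**Figure D2:**
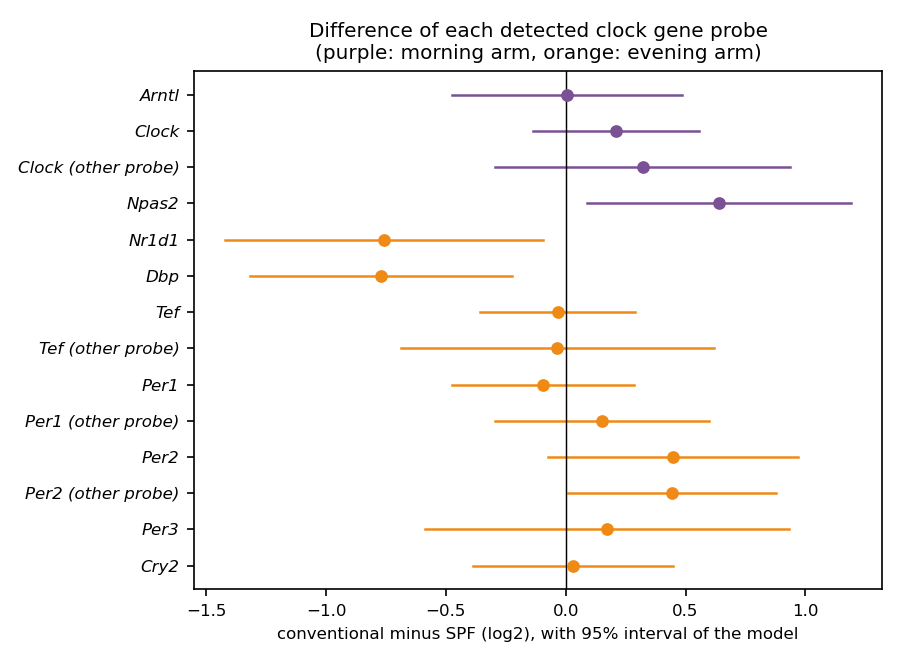
Difference of each of the 14 tested clock probes (x axis, conventional minus SPF in log2 units) with the model's 95% interval as a line, with morning-arm genes in purple and evening-arm genes in orange. The intervals of Dbp, Nr1d1, Npas2 and the second Per2 probe lie to one side of 0 before adjustment, and the other 10 span it.

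Against the rest of the array, the 10 genes were spread widely. The absolute difference of Dbp exceeded that of 99.0% of the 11476 tested named genes, that of Nr1d1 98.9%, that of Npas2 98.1% and that of Per2 94.8%. For Cry2, Tef and Arntl the shares were 13.4%, 14.8% and 3.04%. The rank of Npas2 is limited, since it was tested only through its detection on the conventional arrays. Its difference ran from 0.10 to 1.10 with the processing used. With 1 probe per gene, the groups did not overlap in 2 genes with higher values (Clock and Npas2) and 2 with lower values (Dbp and Nr1d1) in conventional cord, which is close to the 16.3% and 15.2% of all named genes. An unadjusted p under 0.05 was reached by 3 of the 10, and by 2 of the 9 detected in both groups, against 3.24% of all named genes. The median difference was 0.02 over the 10 genes and 0.00 over all named genes.

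The spread between replicates varied among the clock genes. The pooled SD within groups had a median of 0.21 over the 10 genes and 0.16 over all named genes. Per3 (0.49), Dbp (0.41), Nr1d1 (0.40) and Per2 (0.35) had the widest spread, above that of 95.7%, 92.3%, 92.0% and 88.3% of named genes. Arntl (0.10), Cry2 and Tef (0.12 each) had the narrowest, above that of 28.6%, 35.3% and 36.5% of named genes. Dbp, Nr1d1 and Per2, among the genes with the largest differences between groups, were thus also among those that differed most between arrays of 1 group.

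For the question of phase, each gene was set against its own mean over the 4 arrays and averaged within its arm. The evening arm stood at 0.24 and -0.09 on the SPF arrays and at -0.07 and -0.08 on the conventional arrays. Only SPF replicate 1 stood out, and the groups overlapped. The morning arm stood at -0.23 and -0.06 on the SPF arrays and at 0.09 and 0.19 on the conventional arrays, without overlap. That separation rested on Npas2. Arntl and Clock stood at 0.10 and 0.05 on SPF replicate 2 and at -0.03 and 0.07 on conventional replicate 2. The mean of Arntl and Clock alone overlapped between the groups. Evening minus morning was 0.47 and -0.04 on the SPF arrays and -0.16 and -0.27 on the conventional arrays. SPF replicate 1 was again the array farthest from the rest.

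Between the groups, the evening arm differed by -0.14, the morning arm by 0.28 and evening minus morning by -0.43. The SD within groups was 0.17, 0.10 and 0.26, and no p is given for a mean over chosen genes. Without SPF replicate 1, evening minus morning was -0.17 and the evening arm alone was 0.02. Npas2, the gene at background on the SPF arrays, supplied most of the morning arm's value, which was 0.11 without it. Evening minus morning was then -0.25, with only SPF replicate 1 above the conventional arrays and SPF replicate 2 slightly below both. Within the evening arm the signs were split, with 4 genes lower (Dbp, Nr1d1, Per1, Tef) and 3 higher (Per2, Per3, Cry2), and the median was -0.03. Dbp and Nr1d1 had the lowest values of the arm and Per2 the highest. The phase of the clock in these mice was not measured.

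**Figure D3:**
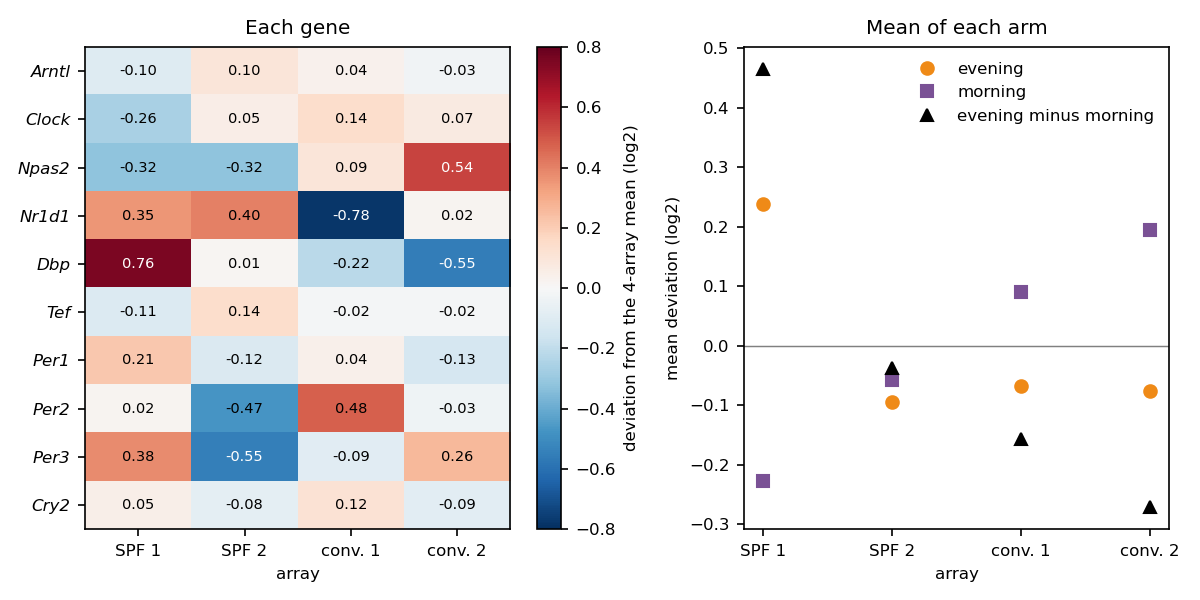
Left, deviation of each clock gene (rows) from its 4-array mean on each array (columns), in log2 units. Right, mean deviation of the evening arm (circles), the morning arm (squares) and their difference (triangles) on each array, which reaches 0.47 on SPF replicate 1 and -0.27 on conventional replicate 2.

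**Figure D4:**
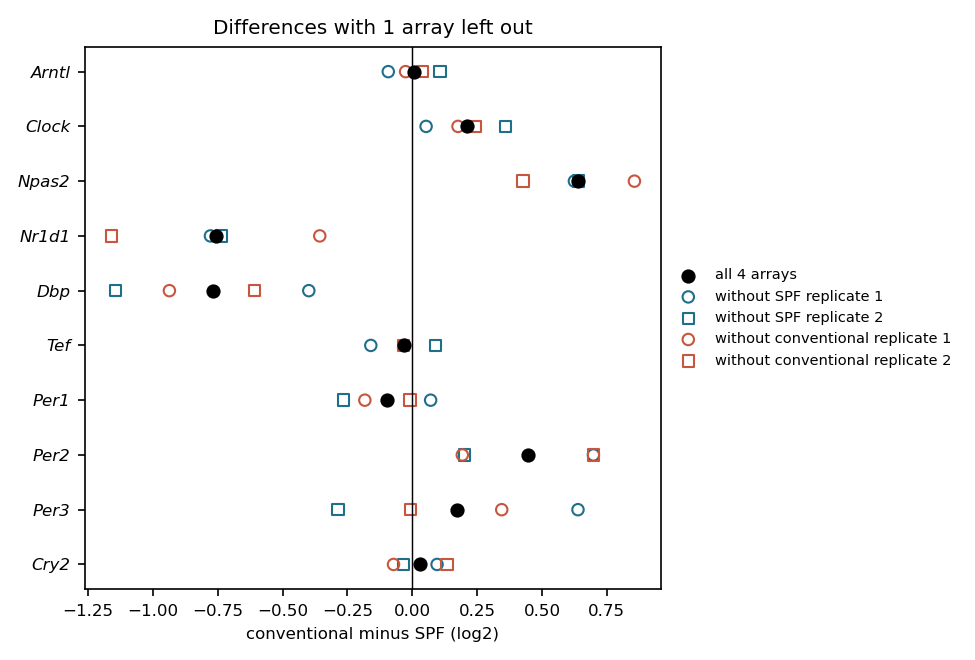
Difference of each clock gene (x axis, conventional minus SPF in log2 units) with all 4 arrays (filled) and with each array left out (open). Dbp and Nr1d1 stayed below 0 and Npas2, Per2 and Clock above 0 in these fits, and Per1, Per3, Cry2, Tef and Arntl lay on both sides of it.

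Other genes of the loop were read from a list in which 9 had a named probe. Of these, 5 were tested, and Cry1, Arntl2, Bhlhe41 and Hlf were above background on at most 1 array. Of the 5, 0 passed the adjusted test, 3 were higher and 2 lower in conventional cord, and the median difference was 0.03 (-0.068 without conventional replicate 2). Ciart, which encodes the repressor CHRONO and is highest during the day like Dbp, had the largest value. It stood at 8.86 and 8.20 on the SPF arrays and at 8.12 and 7.87 on the conventional arrays. The groups did not overlap, SPF replicate 1 was again the highest, and the difference was -0.54 ± 0.24, or -0.20 without that array. Its other probes gave -0.66 and -0.07. Bhlhe40, a repressor of E-box genes, differed by -0.15 ± 0.13, and by -0.24 to -0.066 with an SPF array left out. Rorb, a nuclear receptor of the ROR family, differed by 0.19 ± 0.22, and by 0.037 to 0.34 with a conventional array left out, and a further probe gave -0.27. Nr1d2, the paralog of Nr1d1, differed by 0.09 ± 0.17, of opposite sign to Nr1d1.

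Kinases, ligases and partners that set the stability of clock proteins showed small values. Of 20 genes, 15 were tested, 0 passed, 4 were higher and 11 lower, and the median difference was -0.07. Timeless differed by -0.34 ± 0.22, and Ddb1, a subunit of CUL4 ubiquitin ligases, by 0.32 ± 0.14. Csnk2a1, a catalytic subunit of casein kinase 2, differed by -0.27 ± 0.19 (-0.096 without SPF replicate 2 and -0.43 without SPF replicate 1). The median of the list was -0.012 without SPF replicate 1. Other Csnk2a1 probes gave -0.47 and 0.09.

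Of 13 genes whose mRNA cycles in many organs, 12 were tested, 0 passed, 7 were higher and 5 lower, and the median difference was 0.10. Rbm3 was tested only through its detection on the conventional arrays, and over the 11 genes above background in both groups 6 were higher and 5 lower, with a median of 0.012. With 1 array left out the median of the 12 ranged from 0.018 (without SPF replicate 2) to 0.28 (without conventional replicate 2), and was 0.22 without SPF replicate 1. Cirbp, a cold-inducible RNA-binding protein gene, stood at 9.61 and 9.18 on the SPF arrays and at 8.65 and 8.69 on the conventional arrays, a difference of -0.73 ± 0.18. Cdkn1a, a cell cycle inhibitor gene that REV-ERB-alpha represses, stood at 8.17 on each SPF array and at 9.03 and 8.83 on the conventional arrays, a difference of 0.76 ± 0.16. Its other probes gave 0.94 and 0.89. Bcl6, a transcriptional repressor gene, differed by 0.56 ± 0.13, and Pdk4, which restrains glucose oxidation, by 0.73 ± 0.46 with overlapping groups, and by 0.04 without conventional replicate 1. Usp2, a ubiquitin protease gene that cycles with Dbp, differed by -0.04 ± 0.23.

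Per1 can also be induced outside the clock, and genes that answer to the same CREB and glucocorticoid signals were read beside it. Of 11, Per1 among them, 9 were tested, 0 passed, 7 were higher and 2 lower, and the median difference was 0.39. It ranged from 0.24 (without conventional replicate 1) to 0.31 when single arrays were left out, and was 0.21 both without background correction and in the authors' table. Sgk1, a glucocorticoid-induced kinase gene, differed by 0.75 ± 0.24 (0.33 without conventional replicate 1), Fkbp5, a regulator of the glucocorticoid receptor, by 0.48 ± 0.20 (0.24 without conventional replicate 1) and Dusp1, an immediate-early phosphatase gene, by 0.45 ± 0.16, all without overlap of the groups. Per1 itself, at -0.10, was the lowest of the 9, with Klf9 next at -0.06. This place depends on the probe, since the second Per1 probe gave 0.15.

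**Figure D5:**
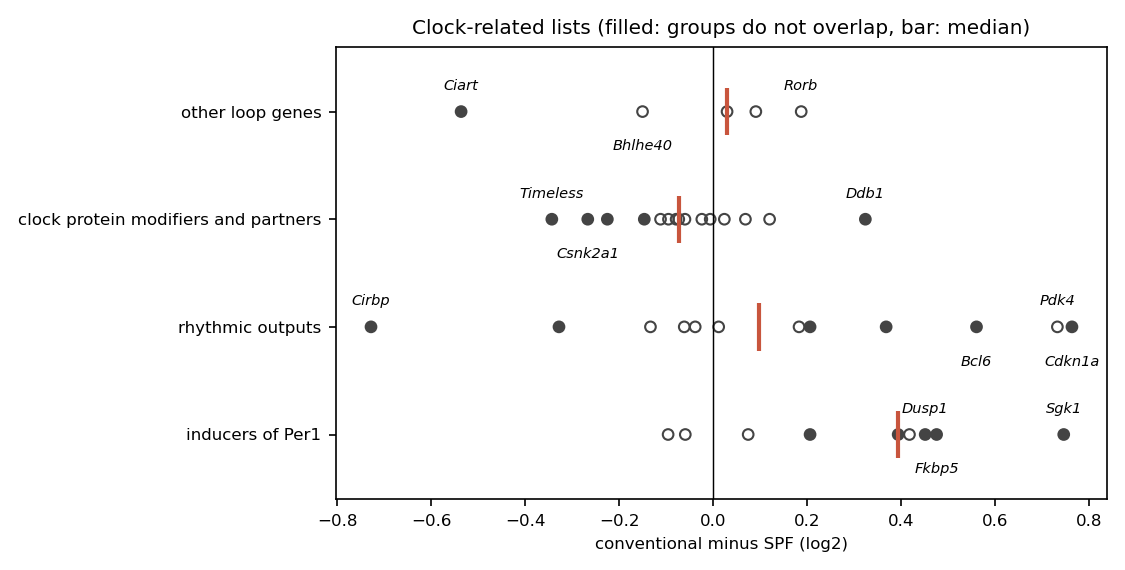
Differences (x axis, conventional minus SPF in log2 units) of the tested genes of 4 lists around the clock, 1 point per gene, filled where the groups do not overlap, with a bar at the median. Ciart and Cirbp lie farthest below 0, and Cdkn1a and Sgk1 are among those farthest above it.

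Transcripts of other cell types differed between the same arrays. Among the cord's own markers, the cholinergic neuron genes Slc5a7 and Chat were higher in conventional cord, by 0.71 ± 0.25 and 0.45 ± 0.24. Slc5a7 stood at 7.16 and 7.83 on the SPF arrays and at 8.31 and 8.09 on the conventional arrays, without overlap and lowest on SPF replicate 1. Chat stood at 8.86 and 9.52 against 9.44 and 9.84, with overlapping groups. The other 5 detected cord markers differed by between -0.15 (Gad1) and 0.16 (Gfap), and the summed level of the 7 was 15.97 and 15.77 on the SPF arrays and 16.05 and 15.79 on the conventional arrays. Of 5 red blood cell genes 4 were tested. Against 15.2% of all named genes, all 4 were lower in conventional cord without overlap. Their summed level was 15.39 and 14.84 on the SPF arrays and 14.35 and 13.67 on the conventional arrays, which is the order of the arrays seen for Dbp. All 7 meningeal fibroblast genes were lower on average, with summed levels of 12.35 and 14.56 against 13.00 and 11.30, and 5 of 6 skeletal muscle genes were tested and lower, with 10.73 and 9.00 against 9.31 and 8.44, Myh4 being at background. Of the muscle genes, Ckm was tested only through its detection on the SPF arrays, so it could hardly have shown the opposite sign. All 5 neutrophil genes were higher on average, with 10.16 and 9.80 against 11.75 and 9.57, conventional replicate 1 standing apart as it did for Nr1d1. Of the lists in this paragraph, only the red blood cell genes had the array order of Dbp. The part of these cell types in the clock values was not tested.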

How the data were processed

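Total RNA of the cervical spinal cord was hybridised to 4 Illumina bead arrays, 2 per group, with groups and replicate numbers from the titles. Per the file headers, the deposited signals are intensity values before normalization, each with a detection p-value. The authors' own value table holds intensity values that they had normalized, was used as an alternative, and has column medians of 216.5 to 216.6. Its scale is linear without centring of genes, and the transformation that compresses its low values is unknown. The submitters' processing notes name lumi. The scanner software was not given in the sources used here, nor was a genome build.

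The neqc function of limma 3.58.1 (R 4.3.3) corrected the background, normalized by quantiles, added an offset of 16 and took log2. Negative-control statistics were inferred from the detection p. Probes with a detection p under 0.05 on at least 2 arrays (21065 of 45281) entered limma's linear model with a variance trend (lmFit, eBayes). Tests were two-sided and adjusted after Benjamini-Hochberg with a threshold of 0.05. The fit was tested on simulated data. Symbols come from the platform annotation. It gives 1 symbol for 34885 probes, several for 18 and none for 10378. All 10 clock symbols matched RefSeq by gene number. The number of arrays limits the precision. Slide and scan are not recorded in the files, so no batch could be tested.

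The clock genes, the arms and the lists were chosen with earlier results of these data known. Named were all 10 clock genes and, of each list, the 3 tested genes of largest absolute difference and any whose groups did not overlap and which differed by at least 0.5. Nr1d2 and Usp2 were named after their values were seen, as were Avp and Vip among the marker genes. Alternatives covered background correction, normalization, the authors' table, filters, variance models, probe choice, arm membership, the replicate number as a block, and each array left out.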

Additional observations from a re-analysis of the deposited data

How the results depend on the processing

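The count of clock probes past the adjusted threshold was 0 under every alternative run, with a lowest adjusted p of 0.133, for Dbp, when the replicate number was a block. The replicate numbers are shared by 2 pairs only. Deviations of the first replicates correlated at 0.22 over the tested probes, which does not establish a pairing. The replicate block took the count over all probes from 0 to 14, and leaving out 1 array took it to between 0 and 2. At an unadjusted p under 0.05 the count over all probes was 663, and 1778 with the block. The morning arm differed by 0.28, and by 0.13 without background correction, 0.44 with the negative-control mean subtracted, 0.091 in the authors' table, 0.11 with a detection p under 0.01 on all arrays and 0.11 without Npas2 (added once the values were known). The stricter filter also removes Npas2, which accounts for that value. Without background correction, with the negative-control mean subtracted and in the authors' table, Npas2 differed by 0.20, 1.10 and 0.10. Clock then differed by 0.19, 0.21 and 0.17, and Arntl by 0.0025, 0.0078 and 0.0012. Npas2 was thus the morning gene that moved most between these settings. Why it moved was not tested. Leaving out 1 array gave -0.31 to 0.024 for the evening arm, 0.19 to 0.37 for the morning arm and -0.68 to -0.17 for evening minus morning. Over the other alternatives evening minus morning ran from -0.59 to -0.19, and with Nr1d2, Ciart and Usp2 added to the evening arm the direction was kept. No morning gene could be added, since Cry1 was at background and Nfil3 had no named probe. The sign turned for Cry2 under median scaling (-0.016) and without scaling between arrays (-0.030), and for Arntl likewise (-0.034 and -0.048). With 1 array left out, values ranged from -0.27 to 0.071 for Per1, -0.29 to 0.64 for Per3, -0.073 to 0.13 for Cry2, -0.16 to 0.090 for Tef and -0.093 to 0.11 for Arntl. Dbp, Nr1d1, Per2, Clock and Npas2 kept their sign in every fit that tested them. Npas2, at background on the SPF arrays, is the gene that signal over background limits most.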

Other observations

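The cord should lack the cells of the suprachiasmatic nucleus, the clock centre of the hypothalamus, and 4 marker genes of that nucleus were read for this reason. Six6, a homeobox gene of that region, was not above background on any array. Prokr2 was above background on all 4 arrays, at mean levels of 5.45 (SPF) and 5.31 (conventional), and differed by -0.14 ± 0.24. Avp, which encodes vasopressin, was not above background on the SPF arrays (4.71 and 4.54) and was so on both conventional arrays (6.61 and 5.30). Set against the lowest level counted as above background, its conventional mean was 1.85-fold higher, a ratio that takes no account of error. That ratio rests on conventional replicate 1 and is 1.17-fold without it, and 2.91-fold without conventional replicate 2. Avp was tested only through its detection on the conventional arrays. Vip, which encodes vasoactive intestinal peptide, stood at 4.67 and 5.63 on the SPF arrays, of which 1 was above background, and at 6.62 and 6.38 on the conventional arrays, a difference of 1.35 ± 0.33. Neither passed the adjusted test over all probes. Both peptides are also made by neurons outside that nucleus.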
